A study of Mus musculus with 3 samples.

Results

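The nuclear-encoded genes of the mitochondrial respiratory chain were examined in cultured mouse astrocytes, as the rows of a table of normalized read counts whose symbols begin with Nduf, Uqcr, Cox4 to Cox8 or Atp5, or are Sdha, Sdhb, Sdhc or Sdhd. The rule chose genes by name and used no measured value. It found 93 of the 19471 genes listed, of which 91 are annotated as protein-coding and 2, Ndufa12-ps and Ndufs6b, as processed pseudogenes. By complex there were 44 members for complex I, 4 for complex II, 8 for complex III, 17 for complex IV and 18 for complex V. The count for complex I includes the 8 assembly factors Ndufaf1 to Ndufaf8, and that for complex IV includes Ndufa4, Ndufa4l2 and Cox7a2l, which are assigned here by function and not by the letters of their names. With the assembly factors, the pseudogenes, the inhibitor Atp5if1 and the supercomplex factor Cox7a2l set aside, 81 members are structural subunits.

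The study held 3 RNA-seq libraries of wild-type cells only, each made from the cortical astrocytes of 1 newborn pup after 7 days in culture. Replicates 1, 2 and 3 came from pups 5, 6 and 8, called biological replicates in the labels, and formed the only group. The sample titles give postnatal day 1, whereas the sample descriptions carry a name for day 0. No treatment, genotype or age was compared, so the comparisons are between genes, between complexes and between the 3 libraries. The libraries held 14380993, 25128038 and 9858626 reads in genes, so replicate 3 had the least depth. All 12 astrocyte markers examined had a mean normalized read count of at least 10, with Gfap at 52283, and so did all 8 microglial markers, whose summed level was 23616, 18381 and 16057 in replicates 1, 2 and 3. Among 7 neuronal markers 4 reached a mean of 10, with Map2 at 2564, Syt1 at 167 and Tubb3 at 157, while Snap25 was at 2.51 and Slc17a7 at 0.786. Syt1 had 222, 35.9 and 244 in replicates 1, 2 and 3. All 5 ependymal markers reached a mean of 10, with Foxj1 at 9966, and their sum was 13671, 10164 and 11672 in replicates 1, 2 and 3. Of 7 oligodendrocyte lineage markers listed, 6 were present in the data, and all 6 reached a mean of 10, with Olig1 at 5896. Acta2, of 6 mural and smooth muscle markers, was at 48318, and 4 of those 6 reached a mean of 10. Of the remaining lists, 4 of 5 fibroblast and 3 of 4 choroid plexus markers did. So did 2 of the 4 endothelial markers present in the data, of 5 listed. The choroid plexus marker Ttr had 31.7, 557 and 13.2 in replicates 1, 2 and 3. The cultures were bulk samples, in which the number of cells of a type and the RNA per cell cannot be told apart.

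Complexes I to IV pass electrons from NADH and succinate to oxygen, and complexes I, III and IV pump protons as they do so. Complex V, the ATP synthase, lets the protons return through its membrane ring and uses them to make ATP in its F1 head. Most subunits are encoded in the nucleus and imported, and a few are encoded in mitochondrial DNA. Astrocytes are known for a high rate of glycolysis, yet they carry a complete respiratory chain.

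The gene Ndufs5 encodes a small accessory subunit of the membrane arm of complex I and lies on chr4:123712710-123718202 (minus strand, mm10). It is shown first because its near-identical processed pseudogene BC002163, on chr16:42955631-42955949 (plus strand), is also in the table. Over 319 aligned bases from the start codon the 2 sequences differed at 2 positions, T81C and A105G, counted from base 1 of the Ndufs5 coding sequence with the Ndufs5 base given first, an identity of 99.37%. The first 150 bases of each, from the GENCODE vM21 annotation of mm10, follow with the 2 differing positions in capitals.
Ndufs5: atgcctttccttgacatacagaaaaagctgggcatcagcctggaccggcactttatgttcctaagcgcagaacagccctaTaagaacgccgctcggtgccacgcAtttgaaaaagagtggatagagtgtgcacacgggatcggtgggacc
BC002163: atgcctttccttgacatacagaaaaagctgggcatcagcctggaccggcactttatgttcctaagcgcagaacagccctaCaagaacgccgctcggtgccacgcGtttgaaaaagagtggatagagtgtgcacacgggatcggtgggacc

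Promoter sequences are shown for 4 structural subunits because the members were compared by their shared promoter motifs and by their differences between libraries. The promoters come from RefSeq on GRCm38.p6 and cover 250 bases before to 50 bases after the annotated start. Among the structural subunits with a mean normalized read count of at least 100, Ndufa3 was, after Atp5mk, the highest above its own mean in replicate 3, and Cox5a the farthest below. Uqcrc1 and Atp5mf are shown as examples of members with an NRF1 and a YY1 motif. Other holders of these motifs may have higher counts. Capitals mark the motif found, which is Sp1 (GGGCGG, read as CCGCCC on the opposite strand) in Ndufa3 and Cox5a, NRF1 in Uqcrc1, whose 10 capitals are all the letters searched, and YY1 (AAGATGGCG) in Atp5mf. The windows are chr7:3617123-3617422 (plus strand) for Ndufa3, chr9:57520982-57521281 (plus strand) for Cox5a, chr9:108936398-108936697 (plus strand) for Uqcrc1 and chr5:145191492-145191791 (minus strand) for Atp5mf.
Ndufa3: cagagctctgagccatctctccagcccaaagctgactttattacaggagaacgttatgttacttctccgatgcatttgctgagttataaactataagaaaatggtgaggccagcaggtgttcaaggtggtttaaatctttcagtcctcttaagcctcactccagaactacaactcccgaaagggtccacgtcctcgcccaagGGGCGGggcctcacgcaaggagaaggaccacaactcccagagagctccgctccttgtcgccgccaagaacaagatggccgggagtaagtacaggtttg
Cox5a: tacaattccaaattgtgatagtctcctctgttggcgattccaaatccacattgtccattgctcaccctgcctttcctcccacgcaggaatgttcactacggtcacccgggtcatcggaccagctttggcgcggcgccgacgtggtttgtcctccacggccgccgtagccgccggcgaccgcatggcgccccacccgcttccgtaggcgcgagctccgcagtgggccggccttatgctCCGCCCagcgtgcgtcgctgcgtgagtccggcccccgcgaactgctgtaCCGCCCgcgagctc
Uqcrc1: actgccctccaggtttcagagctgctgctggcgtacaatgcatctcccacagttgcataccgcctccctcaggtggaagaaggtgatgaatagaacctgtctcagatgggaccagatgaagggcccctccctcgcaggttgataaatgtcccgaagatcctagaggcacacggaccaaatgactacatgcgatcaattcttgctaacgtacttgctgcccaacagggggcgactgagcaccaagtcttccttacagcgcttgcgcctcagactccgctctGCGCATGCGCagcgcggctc
Atp5mf: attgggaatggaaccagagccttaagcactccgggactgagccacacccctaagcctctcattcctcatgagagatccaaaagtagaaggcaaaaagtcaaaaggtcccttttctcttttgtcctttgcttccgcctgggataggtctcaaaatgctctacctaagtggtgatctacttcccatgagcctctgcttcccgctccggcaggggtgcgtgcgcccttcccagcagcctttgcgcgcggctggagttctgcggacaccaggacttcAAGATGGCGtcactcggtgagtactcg

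Promoters were matched for 74 of the 91 protein-coding members, 79 promoters in all, and each motif was searched on both strands. The NRF1 letters, a site of the nuclear respiratory factor, stood in 7 of the 79 member promoters (8.86%), against 319 of 32851 promoters of all genes (0.971%). The YY1 letters stood in 8 of 79 (10.1%), 6 of them in complex I and 2 in complex V, against 1.40% of all promoters. The letters CCGGAAGT, a site of the ETS factors that include GABP, stood in 5 of 79 (6.33%) against 3.89%, and those of Sp1 in 35 of 79 (44.3%) against 35.7%. A match is a description of these windows, and no match says only that the letters are not there.

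Most of the members were well expressed in the astrocytes. Of the 93, 87 had a mean normalized read count of at least 10 over the 3 libraries, 83 of at least 100 and 51 of at least 1000, against 13941, 10571 and 2954 of the 19471 genes listed. The median member had a normalized read count of 1070, against 347 for all genes with a mean of at least 10. Levels of different genes were compared per kilobase of merged exons, as TPM (transcripts of a gene scaled to the same total in every library), since a normalized read count grows with transcript length. The median member had 200.02 TPM, against 22.1 TPM for all genes with a mean of at least 10. The median structural subunit stood 9.85 ± 0.553 times (SD over 3 libraries) above the median of all those genes. All members together took 1.13%, 1.05% and 1.10% of the reads in replicates 1, 2 and 3.

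The 8 members of complex III, the cytochrome bc complex, had the highest median level, 291 TPM, followed by 269 TPM for complex II, 233 TPM for complex V, 191 TPM for complex IV and 113 TPM for complex I. This order depended on the length used, since per kilobase of the principal transcript the medians were 446 TPM for complex V, 306 TPM for complex IV, 301 TPM for complex III, 269 TPM for complex II and 138 TPM for complex I. Complex I was the lowest in both. Its 8 assembly factors, which help to build the complex and are not part of it, had a median of 31.7 TPM, whereas the 7 nuclear-encoded core subunits, among which are those that hold the flavin and the iron-sulfur clusters, had 181 TPM. The 9 accessory subunits of its peripheral arm had a median of 144 TPM and the 19 of its membrane arm 211 TPM.

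**Figure D1:**
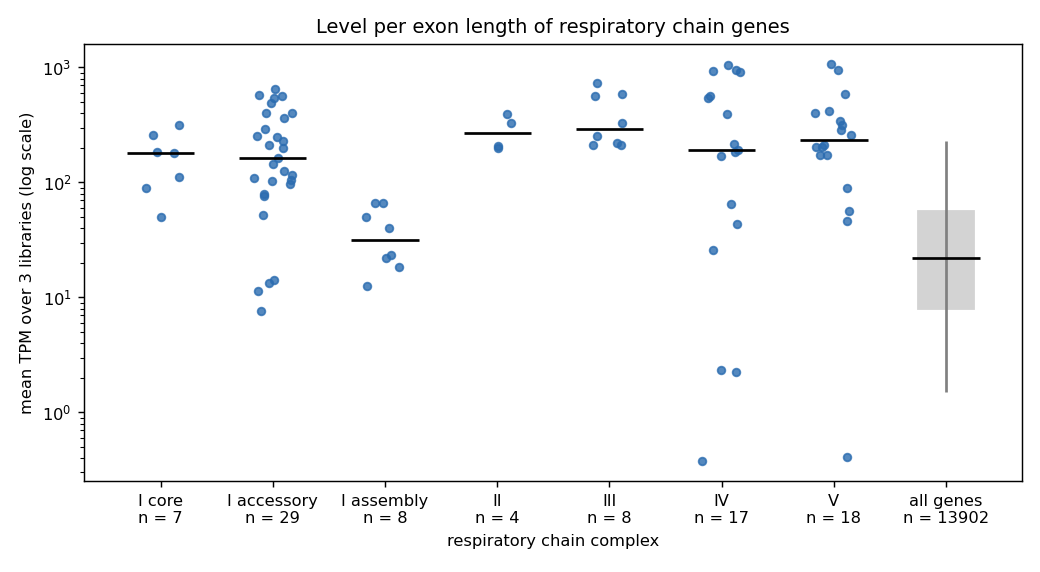
The mean level over 3 libraries, in TPM per kilobase of merged exons on a log scale, is plotted for each member by complex, with black lines at the medians; the grey box and line show the middle 50% and 90% of all genes with a mean normalized read count of at least 10. The medians of all the complexes lie above the 22.1 TPM of all genes, and the 8 assembly factors of complex I lie nearest to it.

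In complex I the highest levels per kilobase of merged exons were those of a pair of membrane-arm subunits and a peripheral-arm subunit, whereas per kilobase of the principal transcript Ndufa7, with a mean of 587 TPM, and Ndufa3, with 540.2 TPM, were the highest. Ndufa1, a membrane-arm accessory subunit, had 572, 559 and 828 TPM in replicates 1, 2 and 3. Ndufa2, an accessory subunit of the peripheral arm, had 637, 563 and 529 TPM, and Ndufc2, of the membrane arm, had 471, 499 and 722 TPM. Replicate 3 was the highest for Ndufa1 and Ndufc2 and the lowest for Ndufa2. The lowest means were those of Ndufb4 with 7.16, 9.21 and 6.33 TPM, Ndufb2 with 11.0, 11.0 and 12.2 TPM, both of the membrane arm, and the assembly factor Ndufaf4 with 10.6, 14.5 and 12.4 TPM. Ndufs5, described with its pseudogene below, had 1.16 and 0.684 TPM in replicates 1 and 2, under all of these, and 41.0 TPM in replicate 3. Part of the Ndufb4 transcript, 18.3% of its 50-base stretches, is also present in other annotated genes, as is 5.52% of that of Ndufb2 and none of that of Ndufaf4. The mean normalized read counts of Ndufb4, Ndufb2 and Ndufaf4 were 46.9, 208 and 158, over merged exons of 1916, 5628 and 3902 bases.

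The 4 subunits of complex II, succinate dehydrogenase, lay within a narrow range. The membrane anchor Sdhd averaged 391 ± 16.1 TPM (SD, n = 3) and the flavoprotein Sdha 332 ± 2.87 TPM, while the iron-sulfur subunit Sdhb averaged 207 ± 17.9 TPM and the other anchor Sdhc 200.02 ± 12.04 TPM. The last 2 did not differ beyond their spread on this scale, but per kilobase of the principal transcript Sdhb had 274 ± 23.2 TPM and Sdhc 138 ± 8.55 TPM, and Sdha was the highest. In complex III the hinge protein Uqcrh, which binds cytochrome c1, had 652, 620 and 922 TPM in replicates 1, 2 and 3, and was the highest in each library but replicate 1, where Uqcr11 had 658 TPM. Uqcr11 averaged 587 ± 61.9 TPM and Uqcr10 565 ± 46.9 TPM, both small subunits. The lowest of the complex per kilobase of merged exons, Uqcrb with 222 ± 30.8 TPM, the core protein Uqcrc1 with 212 ± 28.5 TPM and Uqcrq with 210.4 ± 14.6 TPM, overlapped among themselves, but per kilobase of the principal transcript Uqcrc1 had 357 ± 48.2 TPM, above both others.

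In complex IV, cytochrome c oxidase, the highest were Cox6b1 with 1155, 984 and 1035 TPM, Cox4i1 with 1022, 953 and 850 TPM and Cox6a1 with 1053, 943 and 806 TPM in replicates 1, 2 and 3. Their ranges overlapped, and per kilobase of the principal transcript Cox4i1 was the highest, with a mean of 1286 TPM. The lowest 3, Ndufa4l2, Cox4i2 and Cox6a2, are isoforms of restricted tissues and are described with their partners below. In complex V the catalytic F1 subunits Atp5f1a and Atp5f1b were the highest, with 1074 ± 28.5 TPM and 950 ± 55.1 TPM (SD, n = 3). They also had the highest normalized read counts of all members, 11110, 11000 and 10620 for Atp5f1a and 13470, 13426 and 12220 for Atp5f1b in replicates 1, 2 and 3. Atp5me, a small membrane subunit, had 595, 510 and 666 TPM.

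The c ring of complex V, which turns as protons pass, is made of the same protein encoded by 3 genes. Atp5mc3 averaged 340 TPM, Atp5mc2 56.8 ± 6.76 TPM and Atp5mc1 46.0 ± 1.45 TPM, so Atp5mc3 held the largest share of the c-ring transcripts per length. By mean normalized read count Atp5mc1, at 733, stood above Atp5mc2, at 308. Their merged exons are 4912 and 1675 bases long. Of the 50-base stretches of Atp5mc2 38.3%, and of those of Atp5mc1 11.1%, occur in other annotated genes. Atp5mg, the g subunit, stood far under the rest of its complex, with 7, 12 and 12 reads and 0.271, 0.274 and 0.684 TPM in replicates 1, 2 and 3. Part of its transcript, 9.99% of the 50-base stretches, is shared with other genes, and the level per principal transcript averaged 3.27 TPM. Atp5mk, a small membrane subunit also called DAPIT, had 58.9, 63.4 and 144 TPM.

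Of the 93 members, 6 had a mean normalized read count under 10. Besides Atp5mg, with 8.57, they were Ndufa4l2 with 8.27, Cox4i2 with 5.74, Cox6a2 with 0.827, and the pseudogenes Ndufa12-ps with 1.26 and Ndufs6b with 0.670. The detection limit, taken as 3 reads in a library, corresponded to normalized read counts of 2.44, 1.42 and 3.59 in replicates 1, 2 and 3. Cox6a2 had 1 read in each library, and Ndufs6b had 1, 0 and 1 reads, so both were at or under that limit.

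Several subunits of complex IV exist as a common form and a form restricted to some tissues, such as the lung, heart, skeletal muscle or testis. In 5 such pairs the restricted gene took at most 6.25% of the pair's transcripts per kilobase of merged exons in any library, and at most 9.93% per kilobase of the principal transcript. Cox4i2, a hypoxia-responsive form known from lung, had 6, 16 and 4 reads in replicates 1, 2 and 3, against 6347, 10052 and 3584 reads of Cox4i1, and its share was 0.239% ± 0.0656 (SD, n = 3) per kilobase of merged exons and 0.122% of the reads. Cox6a2, the heart and skeletal muscle form, had 3 reads in all, against 9005 of Cox6a1, a share of 0.0416% ± 0.0228. Ndufa4l2, which is induced by hypoxia, had 8, 16 and 9 reads, against 2769, 4656 and 2310 reads of Ndufa4, a share of 0.428% ± 0.0630, or 0.222% per kilobase of the principal transcript.

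The 2 remaining pairs had a higher share of the restricted form. Cox6b2, known from testis, had 276, 470 and 208 reads, against 3279, 4740 and 1994 reads of Cox6b1 in replicates 1, 2 and 3. Its share was 5.77% ± 0.595 per kilobase of merged exons and 8.74% ± 0.875 of the reads, with 95% Wilson intervals of 6.93% to 8.69%, 8.27% to 9.83% and 8.29% to 10.7% in the 3 libraries. Cox7a1, the heart and skeletal muscle form, had 55, 103 and 35 reads, against 2039, 3288 and 1615 reads of Cox7a2, a share of 4.49% ± 0.779, or 2.60% of the reads. The intervals cover counting error only. With 3 libraries an exact sign-flip test cannot go below p = 0.25, so none was run. Of 7 markers of cardiac and skeletal muscle listed, 6 were present in the data. Of these, 3 reached a mean normalized read count of 10, the highest being Mb with 32.0. The part of these markers in the values of Cox7a1 was not tested. Cox7a2l, a factor of respiratory supercomplexes that resembles Cox7a2, took 25.6% ± 2.93 of the sum of both.

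**Figure D2:**
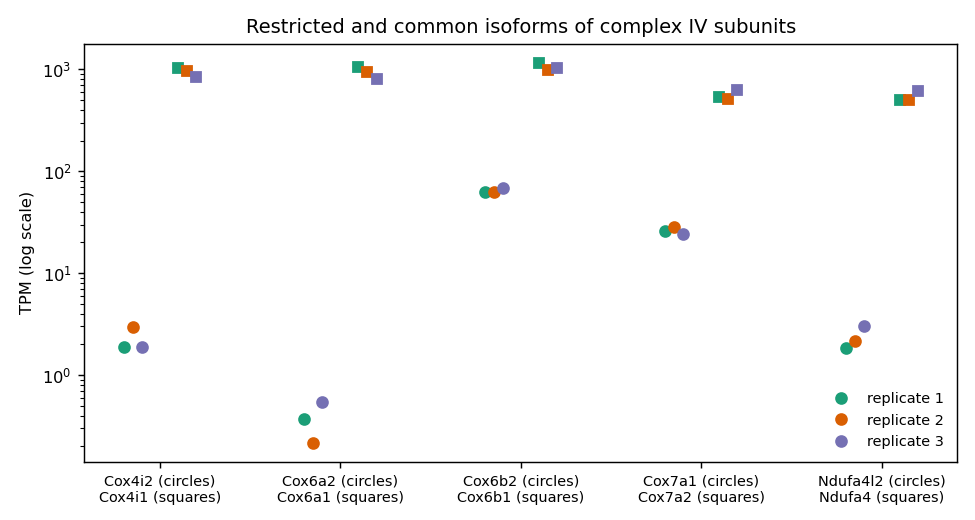
Circles show the restricted form and squares the common form of 5 complex IV subunits in each library, in TPM on a log scale. Cox6a2 lies lowest, and Cox6b2 and Cox7a1 are the nearest to their partners, with mean shares of 5.77% and 4.49%.

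The reads of Ndufs5 stood apart between the libraries more than those of any other member with a mean of at least 10. Its normalized read count was 3.25, 1.89 and 114.8 in replicates 1, 2 and 3, from 4, 4 and 96 reads. That of BC002163 was 322, 314 and 133, so Ndufs5 was high only in replicate 3, where the pseudogene was low. The sum of both was 325, 316 and 248, a range of 1.31-fold against 60.8-fold for Ndufs5 alone. The whole annotated transcripts of the 2 genes share 196 stretches of 50 bases. How the authors placed reads that match both is not given in the sources used here. A value of Ndufs5 or of BC002163 alone is therefore uncertain.

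**Figure D3:**
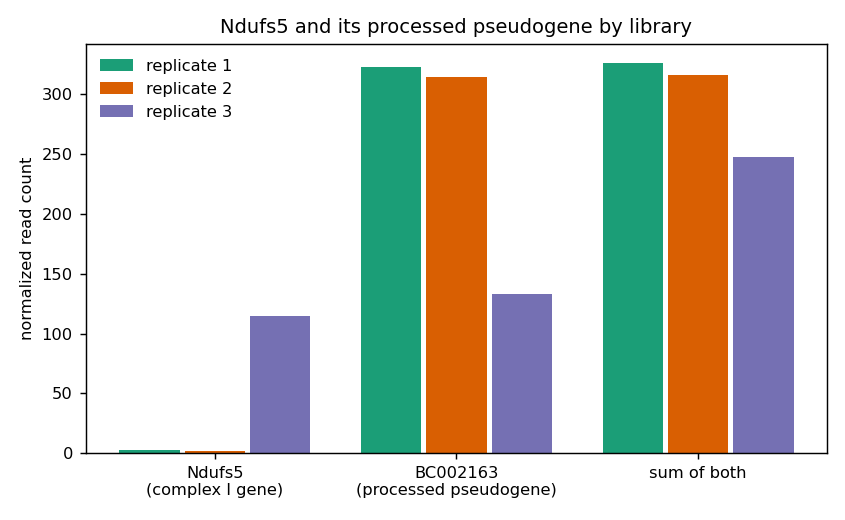
Bars show the normalized read count of Ndufs5, of its processed pseudogene BC002163 and of their sum in each library. Ndufs5 is at 3.25 and 1.89 in replicates 1 and 2 and at 114.8 in replicate 3, while the sum runs between 248 and 325.

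In all, 20 pseudogene copies of 17 members stood in the table, and only BC002163 exceeded its member in any library. Of these copies, 15 had a mean normalized read count under 10, and the highest of the others, Gm10039, a copy of Atp5mc1, averaged 18.4. Of the 93 members, 56 shared at least 1 stretch of 50 bases with another annotated gene and 37 shared none, while 37 shared at least 5% of their stretches. Among the protein-coding members Ndufaf2 shared the most, 64.1%, followed by Atp5po with 41.6%.

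Whether a gene's reads differed between the 3 libraries by more than counting error was tested with a chi-square test of the reads against the deposited size factors, with Benjamini-Hochberg adjustment over 13941 genes at an adjusted p of 0.05. Of 87 members tested, 68 differed, against a background of 55.3% of all genes tested. Deeper counts make small differences visible. Among genes with a mean of at least 100, 67 of 83 members (80.7%) differed, against 64.4% of all such genes, and among those with a mean of at least 1000, a limit chosen after the data were seen, 44 of 51 members (86.3%) differed, against 84% of all such genes. By complex, 33 of 44 members of complex I, 2 of 4 of complex II, 8 of 8 of complex III, 12 of 14 of complex IV and 13 of 17 of complex V differed. Since each library comes from 1 pup, the test cannot tell differences between pups from differences between preparations.

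The size of the differences was modest for most members. Among genes with a mean of at least 100, the median SD of log2 values was 0.15 for the members and 0.14 for all genes, and 11 of 83 members (13.3%) had an SD over 0.3, against 8.54% of all genes. The least variable were Sdha, with normalized read counts of 4482, 4412 and 4407 in replicates 1, 2 and 3, the small membrane subunit Atp5mj with 815, 796 and 798, the membrane-arm subunit Ndufa10 with 1195, 1167 and 1159 and the stalk subunit Atp5pf with 1785, 1782 and 1720. Atp5f1a, at 11110, 11000 and 10620, was next. Their SDs of log2 values lay between 0.014 and 0.034. The first 4 did not pass the chi-square test, with adjusted p between 0.54 and 0.86, and Atp5f1a did (adjusted p = 0.0071).

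The most variable member with a mean of at least 100 was Atp5mk (chr19:47083464-47090647, minus strand, mm10), with 529, 560 and 1294 in replicates 1, 2 and 3, a 2.45-fold range (chi-square adjusted p = 3.6e-114). It was high in replicate 3 alone. Cox5a (chr9:57521274-57532426, plus strand), a matrix-side subunit of complex IV, went the other way, with 387, 317 and 176 (chi-square adjusted p = 2.4e-15). Among all genes with a mean of at least 100 their SDs lay at percentiles 99.8 and 99.6. Next came the assembly factor Ndufaf2 with 184, 167 and 289, the membrane-arm subunits Ndufa3 with 1271, 1008 and 1740 and Ndufc2 with 1157, 1207 and 1772, and Cox6c of complex IV with 1835, 2714 and 1837. Cox6c was the only one of the 10 most variable that was highest in replicate 2.

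The other 4 of the 10 were the assembly factor Ndufaf1 with normalized read counts of 202, 218 and 309, the membrane-arm subunits Ndufa1 with 782, 751 and 1129 and Ndufc1 with 414, 470 and 635, and the hinge protein Uqcrh with 2628, 2460 and 3712 in replicates 1, 2 and 3. All were highest in replicate 3. All 10 passed the chi-square test, which used the same reads by which they were picked and so adds no support. Of these 10, 8 were highest in replicate 3, and 6 of those 8 belong to complex I, which held 41 of the 83 members with a mean of at least 100. With a mean of at least 10, 38 of 87 members and 4975 of 13941 genes were highest in replicate 3. The share among other genes of like spread was not taken.

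**Figure D4:**
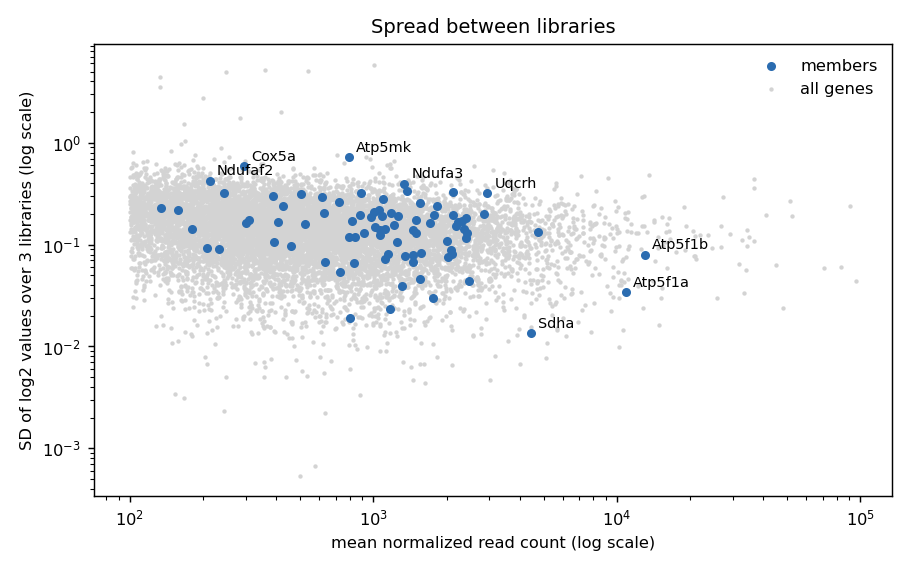
Each point is a gene with a mean normalized read count of at least 100, at its mean (horizontal, log scale) and the SD of its log2 values over 3 libraries (vertical, log scale), with members in blue and all genes in grey. The SDs of the members run from 0.014 for Sdha to 0.72 for Atp5mk, with Cox5a next below Atp5mk. Those of all genes run from 0.00054 to 5.86.

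Median shifts of the complexes between libraries ran from -0.10 to 0.12 on the log2 scale, and the differences between complexes were not tested. For each gene the log2 difference of each library from the gene's mean over the 3 was taken, which had a median of 0.003, 0.008 and -0.001 in replicates 1, 2 and 3 for all genes with a mean of at least 10. In complex I the medians were -0.02, -0.09 and 0.10, and 32 of its 44 members were above their mean in replicate 3, against 6943 of 13941 genes. In complex III they were 0.12, 0.001 and -0.09, with 1 of 8 above in replicate 3, and that member was Uqcrh. In complex IV they were 0.12, -0.10 and -0.08, with 4 of 14 above in replicate 3, and with the 3 members under a mean of 10 included the value in replicate 1 was 0.01. Complex II, at -0.004, 0.02 and -0.02, and complex V, at 0.03, -0.01 and -0.01, lay near 0 in all libraries. These shifts changed when a library was left out. Without replicate 1 the median of complex IV was -0.01 in replicate 2 and 0.01 in replicate 3, and that of complex III in replicate 3 was -0.03. Without replicate 2 the median of complex I in replicate 3 was 0.05, and without replicate 3 its median in replicate 1 was 0.05. A shift taken over 2 libraries is measured from the mean of those 2, so its size is not on the same footing. Its sign says only which of the 2 was higher.

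Within complex I the medians of the modules in replicate 3 ran from -0.05 to 0.14, with Ndufab1, the acyl carrier protein found in both arms, at 0.15. Of all 13941 genes with a mean of at least 10, 6943 were above their own mean in replicate 3 and 7324 in replicate 2. The peripheral-arm accessory subunits had a median of 0.13 in replicate 3, with 8 of 9 above their mean, and 0 of 9 were above it in replicate 2. The membrane-arm accessory subunits had 0.11, with 14 of 19 above, and the assembly factors 0.14, with 6 of 8 above. The 7 core subunits had -0.05, with 3 above. Ndufs4 and Ndufs6, peripheral-arm subunits, had 969, 962 and 1348 and 693, 606 and 866 normalized reads in replicates 1, 2 and 3, both highest in replicate 3. The core subunit Ndufs7, with 734, 624 and 491, was lowest there. In complex V the 5 F1 subunits had a median of -0.09 and the 3 c-ring genes one of -0.13 in replicate 3, with none of those 3 above its mean. Its other modules went the other way there. The 4 other membrane subunits with a mean of at least 10 had 0.13, with 3 above. The 4 peripheral-stalk subunits had 0.06, with 2 above, and the inhibitor Atp5if1 had 0.20.

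**Figure D5:**
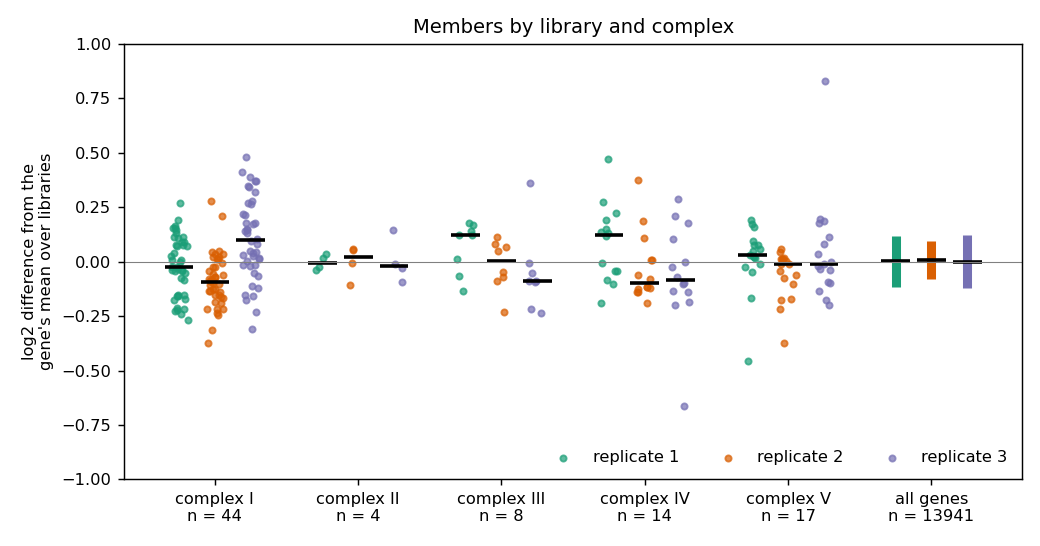
Each point is a member with a mean normalized read count of at least 10, plotted by complex and library as its log2 difference from its own mean over the 3 libraries, with black lines at the medians; the coloured bars show the middle 50% of all genes. Ndufs5, at -1.40, -1.96 and 3.36 in replicates 1, 2 and 3, lies outside the axis. In replicate 3 complex I is centred at 0.10 and complex IV at -0.08. The former was 0.05 without replicate 2 and the latter 0.01 without replicate 1, each measured from the mean of the 2 libraries left.

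Of the 87 members tested, 32 (36.8%) differed between libraries and were highest in replicate 1, 5 (5.75%) in replicate 2 and 31 (35.6%) in replicate 3, against 18.6%, 16.3% and 20.4% of all genes tested. As shares of the genes that differed, these were 47.1%, 7.35% and 45.6% of the 68 members, against 33.6%, 29.5% and 36.9% of all 7710 genes. Of the 68 members, 12 (17.6%) were lowest in replicate 1, 35 (51.5%) in replicate 2 and 21 (30.9%) in replicate 3, against 37.7%, 25.9% and 36.4% of the 7710 genes, and 20.9%, 14.3% and 20.1% of all genes tested. Many members have short transcripts, so the shifts were also taken by length. The 18 structural subunits with a principal transcript under 600 bases had median differences of 0.12, -0.10 and -0.05 in replicates 1, 2 and 3, against 0.10, -0.10 and 0.01 for the 115 protein-coding genes of that length. For 27 structural subunits of 600 to 1000 bases they were 0.02, -0.10 and 0.003, against 0.07, -0.10 and 0.02 for 566 protein-coding genes. For 13 structural subunits of 1000 to 1500 bases they were -0.02, -0.06 and 0.03, against 0.06, -0.05 and 0.003 for 1134 protein-coding genes. For 19 structural subunits of 1500 bases or more they were 0.03, -0.01 and -0.02, against -0.004, 0.02 and -0.01 for 11264 protein-coding genes. The structural subunits thus lay near other genes of their length under 600 bases in replicates 1 and 2. In replicate 2 they also did so at 600 to 1000 and at 1000 to 1500 bases. They lay on the other side of 0 from them under 600 bases in replicate 3 and at 1000 to 1500 bases in replicate 1. The same held at 1500 bases or more in replicates 1 and 2, where the values of both groups lay between -0.01 and 0.03. The part of transcript length in the shifts of the complexes was not tested.

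Replicates 1 and 2 were the most alike over the members. Over 87 members Pearson's r of log2 values was 0.994 between replicates 1 and 2, 0.937 between 1 and 3 and 0.928 between 2 and 3. Without Ndufs5 the last 2 values were 0.974 and 0.977 over 86 members. Over 13941 genes the values were 0.986, 0.981 and 0.985, in the same order of pairs. These describe genes within libraries that share their depth, and genes are not independent replicates.

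The summed level of the 81 structural subunits was close in the 3 libraries, with 128106, 121488 and 126146 normalized reads, a 1.05-fold range. The 7 mitochondrially encoded protein genes in the table summed to 81741, 130409 and 121645, a 1.60-fold range, with replicate 1 the lowest for each of the 7. Of these mt-Co1, the catalytic subunit of complex IV, had 25121, 43313 and 41402. Per kilobase of merged exons the median structural subunit had 211 TPM, against 2261 TPM for the mitochondrially encoded genes. The size of this gap depended on the length used. Per kilobase of the principal transcript the median structural subunit had 273 TPM, and the 7 mitochondrially encoded genes ran from 1427 TPM (mt-Nd2) to 4980 TPM (mt-Cytb).

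Other genes that serve the chain were counted from lists, whose numbers that differed between libraries are to be read against the 55.3% of all genes tested. Only listed genes present in the data were counted. Of 13 complex I assembly factors outside the Ndufaf names, 5 differed between libraries, with Aifm1 at a mean normalized read count of 547, Acad9 at 436 and Foxred1 at 396 the highest. For complex II 1 of 4 assembly factors differed, with Sdhaf2 at 641, Sdhaf4 at 219 and Sdhaf1 at 75.6, and for complex III 4 of 6, with Uqcc1 at 622, Uqcc2 at 547 and Uqcc3 at 298. For complex IV 12 of 23 tested differed, with Higd2a at 1200.0, Coa5 at 1052 and Higd1a at 730, while Cox20 was at 3.22 and was not tested. For complex V 1 of 4 differed, with Tmem70 at 342, Atpaf2 at 328 and Fmc1 at 219. The median levels of these lists lay between 18.4 and 52.6 TPM, below the 211 TPM of the structural subunits.

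Carriers and electron donors were listed in the same way. Of 6 genes for adenine nucleotide and phosphate carriers and uncoupling proteins, which had a median of 139 TPM, 4 were tested and 3 differed between libraries, Slc25a3, Slc25a5 and the uncoupling protein Ucp2. The highest were the adenine nucleotide carrier Slc25a4 at a mean normalized read count of 5626, the phosphate carrier Slc25a3 at 3922 and Slc25a5 at 3020. Cyc1, the cytochrome c1 subunit of complex III that the naming rule does not reach, had 1757, 1630 and 1319 in replicates 1, 2 and 3, lowest in replicate 3 like 5 of the 8 complex III members that differed, and Cycs, cytochrome c, averaged 321. Of 8 other entry points of electrons to ubiquinone, with a median of 37.1 TPM, 5 differed, with Etfa at 1353, Etfdh at 1340 and Gpd2 at 1087, and of 11 genes of ubiquinone synthesis 3, with Coq8b at 831, Coq9 at 669 and Coq2 at 397. Of 19 transcription regulators tested 9 differed, with Sp1 at 1283, Epas1 at 1244 and Chchd2 at 1217. The factors whose motifs were searched were all detected, with Nrf1 at 439, Gabpa at 1052 and Yy1 at 666.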

How the data were processed

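Poly(A) RNA of the 3 libraries was sequenced from stranded libraries, per the labels' protocols. Values in the deposited table are signal, that is read counts per gene divided by a size factor, made by the authors with DESeq2 on mm10, per the submitters' processing notes. How reads were aligned and counted, with or without strand, is not given in the sources used here, and strand could affect overlapping genes. Values were whole multiples of 1 read in 100% of cases within a tolerance of 0.05 reads, so whole reads and the size factors (1.23, 2.12 and 0.836) were recovered.

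Genes with a mean normalized count of at least 10 and 30 reads in all were tested with a chi-square test (SciPy 1.17.1), which was checked on simulated counts. With a single group there is no contrast for edgeR (4.0.16), used with DESeq2 (1.42.0) for alternative scalings only. Log2 values took a pseudocount of 1. TPM was computed from the recovered reads and GENCODE vM21 lengths, to which 99.5% of the genes matched. Intervals and the limit of 3 reads cover counting error only. The members and lists were chosen with earlier results of these data known. Genes named with values are the 3 highest and 3 lowest per complex by TPM, the isoform pairs, the 10 largest and 5 smallest SDs, members under 10, and the 3 highest of each list; Ndufs5, Atp5mc3, Ndufs4, Ndufs6, Ndufs7, Cox20, Cyc1, Ucp2, the markers, Nrf1, Gabpa, Yy1 and the promoters shown were chosen after their values were seen.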

Additional observations from a re-analysis of the deposited data

How the results depend on the processing

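No paired analysis was possible because the 3 libraries form a single group. Genes whose reads differed between libraries numbered 68 members and 7710 of all genes, against 45 and 3151 with Bonferroni adjustment, 45 and 2531 with testing limited to means of at least 1000 (51 members, a setting added after the data were seen), and 44 to 52 and 4977 to 5384 when each replicate was left out in turn. The lowest number of members, 44, was without replicate 3. The structural subunits' median over that of all genes, 9.85, was 10.4 per longest transcript, 11.8 per principal transcript (added later) and 3.38 undivided by length. The Cox4i2 share of 0.239% was 0.122% of reads and 0.127% per longest or principal transcript. The Cox6b2 share of 5.77% was 8.74% of reads and 9.19% per longest or principal transcript. The Cox7a1 share of 4.49% was 2.60% of reads and 3.49% per longest transcript, the Ndufa4l2 share of 0.428% was 0.340% of reads and 0.222% per principal transcript, and the Cox7a2l share of 25.6% was 35.0% of reads. With each library left out in turn, the median log2 shift in replicate 2 ran between -0.000593 and 0.0213 for complex II, against 0.02 over all 3, and between -0.0444 and -0.0114 for complex V, against -0.01; the lower value in both was without replicate 3. With 1 library left out, a shift is measured from the mean of the other 2. Its size is then not on the same footing, and its sign says only which of the 2 was higher. Signs also changed for complex I in replicate 1 (-0.02, but 0.05 without replicate 3). Complex II in replicate 1 had -0.004, but 0.008 without replicate 2, 0.0006 without replicate 3 and 0.006 by library totals. Complex III in replicate 2 had 0.001, but -0.05 without replicate 3 and -0.008 by library totals. Complex IV in replicate 3 had -0.08, but 0.01 without replicate 1. Complex V in replicate 3 had -0.009, but 0.01 without replicate 1, and in replicate 2 it had -0.01, but 0.0009 with the scaling of edgeR. Without replicate 3, complexes II and V in replicate 2 moved by more than the SD of their 3 shifts (0.0216 and 0.0228). The other changes of shift listed here lay within the SD of the 3 shifts of each complex. That SD is made of the shifts themselves and does not measure their uncertainty. The cause of these differences was not tested. Depth limits Cox6a2 and Cox4i2, and the pseudogene members, which had 0 to 16 reads in a library.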
